A study of Mus musculus with 21 samples.

Results

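The 34 genes described here cover the path of glucose through glycolysis and the best known targets of the hypoxia response in mouse cells taken along chemical reprogramming, in which small molecules turn fibroblasts into pluripotent stem cells. They were chosen by name, with earlier results of these data known, although the rule itself uses no measured value. They comprise 4 genes of glucose uptake and trapping, 7 of upper and 7 of lower glycolysis. A further 7 handle pyruvate and lactate, and 9 are hypoxia targets. All 34 had a row among the 43436 gene IDs found in each of the 21 files. Expression was given as FPKM, the fragments of a gene scaled by the gene's length and by the fragments sequenced, so levels of different genes can be compared within a library.

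Glycolysis splits glucose into pyruvate, and most of its steps can be run by several isozymes that are coded by separate genes and differ in affinity, regulation and tissue. Pyruvate is then either reduced to lactate and exported, or passed to mitochondria by pyruvate dehydrogenase, which the kinases of the Pdk family switch off. Under low oxygen the factor HIF, a pair of an alpha subunit (Hif1a or Epas1) and Arnt, raises many glycolytic genes together with genes of collagen modification, mitophagy and blood vessel growth. Prolyl hydroxylases of the Egln family mark the alpha subunits for destruction through Vhl when oxygen is present. Mouse pluripotent cells are known for high glycolytic flux.

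Mouse embryonic fibroblasts (MEF) of stage E13.5, in 2 libraries, were the cells reprogrammed. Intermediate cells came from day 12 (1 library), day 16 (2 libraries) and days 20, 26 and 28 (1 library each). Of 7 chemically induced pluripotent stem cell (CiPSC) lines, 3 are called C1 to C3, 2 are G1 and G3 and 2 are N4 and N6, with 1 library from each. All of these carry the strain C57BL/6J-Tg(GOFGFP)11Imeg/RbrcxICR. Extraembryonic endoderm (XEN) cells, a lineage of the early embryo that makes basement membrane, were all wild-type ICR: CeXEN (2 libraries) were derived from embryonic day 3.5 embryos in the stage 1 medium with VC6TFAE and 20 ng/ml bFGF, and eXEN (2 libraries) is a single established line, with replicate 1 kept in stage 1 medium with VC6TF and 20 ng/ml bFGF and replicate 2 in traditional XEN medium. Embryonic stem cells (ESC) of embryonic day 3.5 gave 1 library of the strain of the fibroblasts and 1 of C57BL/6 (B6)N. Cell type and strain therefore cannot be told apart where XEN cells are compared. CeXEN and eXEN together are called XEN cells below, and ESC and CiPSC together pluripotent cells.

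FPKM totals ran from 543198 to 864945 per library, and read counts were not used here. Sequencing depth, estimated from genes with a single fragment, ran from 0.403 times (CiPSC line C3) to 1.58 times (N4, another CiPSC line) the depth of ESC replicate 1. Whether replicates are separate cultures is not given, and a p-value here measures only how far these samples spread, which may be technical. The 2 day 16 libraries stand apart: the summed FPKM of 8 pluripotency markers was 196 in replicate 1 and 6.34 in replicate 2, while 8 XEN markers summed to 2177 and 1798 FPKM. The status column of the files marks loci as LOWDATA in the libraries of day 12, day 16 replicate 1, day 20 and day 26 and in no other, and whether these 4 were processed apart from the rest is not given in the sources used here. The marker lists matched the labels, with XEN markers at 2025 to 4165 FPKM in XEN cells and 7.59 to 16.6 in pluripotent cells, and pluripotency markers at 1.60 to 51.9 in XEN cells and 4515 to 5725 in pluripotent cells. In bulk samples, fewer cells of a type and less RNA per cell cannot be told apart.

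HIF binds DNA at a short core, ACGTG, and the promoter windows of 7 of the genes are printed here because 5 of these genes differ widely between XEN cells, day 16 or the CiPSC lines and the other two are the isozyme pair Ldha and Ldhb. They were chosen after the values were seen. Each window runs from 250 bases before to 50 bases after a transcript start, is read 5′ to 3′ along the gene, and comes from RefSeq on GRCm38.p6. Capitals mark ACGTG or its reverse complement CACGT, and in CACGTG, which is also the E-box bound by other factors, the pair of them overlap. The windows lie at chr7:138909457-138909756 (Bnip3, minus strand), chr8:45999801-46000100 (Ankrd37, minus), chr11:120948817-120949116 (Slc16a3, plus), chr12:54203825-54204124 (Egln3, minus), chr11:54100674-54100973 (P4ha2, plus), chr7:46845554-46845853 (Ldha, plus) and chr6:142507908-142508207 (Ldhb, minus).
Bnip3: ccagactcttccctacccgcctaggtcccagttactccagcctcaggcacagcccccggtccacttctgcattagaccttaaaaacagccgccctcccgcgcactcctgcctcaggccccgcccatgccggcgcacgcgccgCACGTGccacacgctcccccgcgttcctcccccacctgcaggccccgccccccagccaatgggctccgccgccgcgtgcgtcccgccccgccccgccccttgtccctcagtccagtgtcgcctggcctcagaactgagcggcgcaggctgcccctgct
Ankrd37: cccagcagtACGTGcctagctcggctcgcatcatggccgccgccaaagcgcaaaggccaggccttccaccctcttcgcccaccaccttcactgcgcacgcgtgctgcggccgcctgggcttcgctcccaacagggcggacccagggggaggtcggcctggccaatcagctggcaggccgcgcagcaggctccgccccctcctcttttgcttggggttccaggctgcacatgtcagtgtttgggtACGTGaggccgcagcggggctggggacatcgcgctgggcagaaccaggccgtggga
Slc16a3: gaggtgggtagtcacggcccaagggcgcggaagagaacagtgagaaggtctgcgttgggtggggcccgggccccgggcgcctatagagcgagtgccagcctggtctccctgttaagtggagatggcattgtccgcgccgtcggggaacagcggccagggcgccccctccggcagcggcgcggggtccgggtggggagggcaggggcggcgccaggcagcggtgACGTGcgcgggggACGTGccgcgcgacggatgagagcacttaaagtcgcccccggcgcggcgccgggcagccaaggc
Egln3: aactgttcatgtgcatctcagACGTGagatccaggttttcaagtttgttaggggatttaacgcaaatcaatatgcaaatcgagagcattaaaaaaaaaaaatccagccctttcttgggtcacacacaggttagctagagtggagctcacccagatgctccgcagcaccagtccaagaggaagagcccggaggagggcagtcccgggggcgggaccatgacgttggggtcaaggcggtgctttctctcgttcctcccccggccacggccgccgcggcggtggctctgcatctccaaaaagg
P4ha2: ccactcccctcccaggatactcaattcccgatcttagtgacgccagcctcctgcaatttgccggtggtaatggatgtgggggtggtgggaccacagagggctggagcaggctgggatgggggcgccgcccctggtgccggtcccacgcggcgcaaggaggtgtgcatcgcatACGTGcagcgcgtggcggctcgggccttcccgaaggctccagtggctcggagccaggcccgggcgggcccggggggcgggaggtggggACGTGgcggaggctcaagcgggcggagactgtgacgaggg
Ldha: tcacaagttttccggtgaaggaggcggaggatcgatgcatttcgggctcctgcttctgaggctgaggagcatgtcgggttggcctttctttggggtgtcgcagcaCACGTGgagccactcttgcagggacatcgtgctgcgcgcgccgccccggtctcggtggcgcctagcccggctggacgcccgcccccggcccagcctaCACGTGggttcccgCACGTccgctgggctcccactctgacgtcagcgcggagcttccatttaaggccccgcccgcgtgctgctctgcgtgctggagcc
Ldhb: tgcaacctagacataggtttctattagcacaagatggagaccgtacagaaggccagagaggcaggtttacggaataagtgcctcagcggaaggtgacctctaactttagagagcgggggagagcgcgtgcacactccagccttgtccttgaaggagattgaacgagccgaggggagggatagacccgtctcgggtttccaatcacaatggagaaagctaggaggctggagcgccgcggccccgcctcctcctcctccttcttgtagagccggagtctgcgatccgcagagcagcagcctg
Ldha has 2 windows in RefSeq, of which only the printed 1 held ACGTG, at 3 places. The single Ldhb window held no ACGTG, although both genes code for subunits of the same enzyme. It did hold GCGTG, another form of the core that is not capitalised here, as did the 2 Ldha windows. RefSeq gave at least 1 window for 32 of the 34 genes (none for Slc2a3 and Ndrg1), and 25 of their 46 windows (54.3%) held ACGTG on either strand, against 19.6% of all 32851 windows. Windows with GCGTG made up 56.5% of the members' windows and 32.4% of all windows. In the window nearest the start of the gene, ACGTG was found for 19 of the 32 genes. A match of these letters is a description, and base composition was not taken into account. The genes were chosen by name, partly as known HIF targets, so the comparison with all windows is not a test.

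Changes are differences of log2(FPKM + 1), fitted with limma over all 21 libraries and adjusted over the 16650 genes with at least 1 FPKM in at least 2 libraries, which all 34 passed. A gene is called at an adjusted p under 0.05 and a change of at least 1 on that scale. The scale understates changes of genes with low FPKM. At day 16 against MEF, 5 of the 34 genes were called higher and 2 lower, and their 20.6% is the share of all genes (20.7% called, 13.3% higher and 7.41% lower). In CiPSC against day 16, 22 were higher and 4 lower, 76.5% of the members against 29.9% of all genes (13% higher and 17% lower). In CiPSC against MEF, 17 were higher and 2 lower, 55.9% against 37% of all genes (21.7% higher, 15.3% lower). XEN cells against pluripotent cells gave 9 higher and 6 lower, 44.1% against 29.6% of all genes (10.9% higher, 18.6% lower). Every XEN library lay above every pluripotent library for 5 members (14.7%, against 11.3% of all genes). Every XEN library lay below for 7 members (20.6%, against 24.7%). Lack of overlap was thus about as common among all genes, and is given below as a description. Day 16 against XEN cells gave 1 higher and 9 lower, 29.4% against 13.9% of all genes (12% higher, 1.87% lower).

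The median change of the members was -0.30 at day 16 against MEF (0.22 over all genes), 1.26 in CiPSC against day 16 (-0.02), 1.16 in CiPSC against MEF (0.25), -0.44 in XEN against pluripotent cells (-0.20) and -0.71 at day 16 against XEN cells (0.17), all on the log2(FPKM + 1) scale. These comparisons share libraries. The day 16 calls rest on few libraries: without day 16 replicate 1 the calls fell to 3 against MEF (Slc2a3 and Slc16a1 higher, Eno3 lower), to 16 for CiPSC against day 16 and to 5 against XEN cells. Without replicate 2 they were 8, 19 and 4. A fit of only the 4 day 16 and MEF libraries called 0 of the 34 and 0 of all genes with limma, with 12 of the 34 at an unadjusted p under 0.05. CiPSC against MEF kept 11 calls without MEF replicate 2. Rescaling moved the split of day 16 calls against MEF to 5 higher and 4 lower (quantile normalization) or 4 and 4 (median of ratios), and turned no called change of a member round. In CiPSC against MEF median of ratios left 12 higher and 2 lower, without Pfkp, Aldoa, Gapdh, Pgam1 and Pkm.

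**Figure D1:**
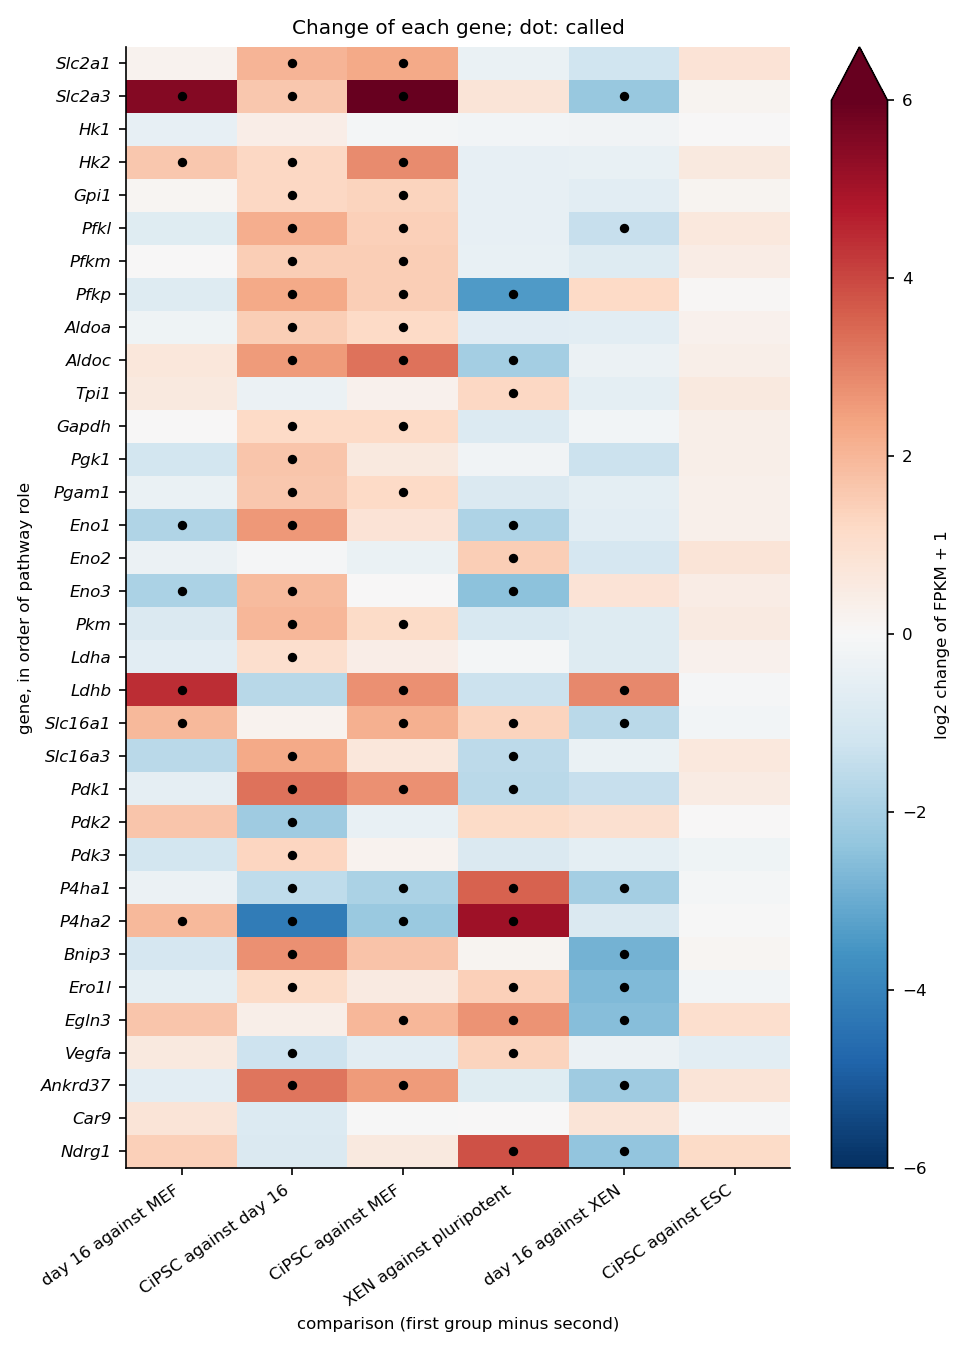
Change of each of the 34 genes (rows, in order of pathway role) in the 6 comparisons (columns), as the log2 difference of FPKM + 1 of the first group minus the second; a dot marks a called gene and the arrow on the colour bar stands for changes above 6. CiPSC against day 16 has 26 dots, CiPSC against ESC none.

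Of the 34 genes Slc2a3 changed most between fibroblasts and day 16. Slc2a3, the high-affinity transporter GLUT3 of neurons and early embryos (mm10 chr6:122727809-122801640), stood at 2.25 and 2.65 FPKM in MEF, 81.4 at day 12, 144 and 174 at day 16, 255 at day 20, 251 at day 26, 255 at day 28 and 376 to 776 (median 446) in the CiPSC lines. No later library overlapped with MEF, and every CiPSC line was above every library on the way. The change at day 16 against MEF was 5.53 ± 0.29 (SE, limma adjusted p = 1.12e-08) and that of CiPSC against day 16 was 1.60 ± 0.23 (limma adjusted p = 6.67e-05). Slc2a1, the broadly expressed transporter GLUT1, had 72.2 and 42.1 FPKM in MEF, 67.3 at day 12, 95.5 and 43.9 at day 16, 111 at day 20, 118 at day 26, 156 at day 28 and 184 to 624.9 (median 208) in CiPSC. Its day 16 and MEF values overlapped, and it was called in CiPSC against both of them (CiPSC against day 16, 2.04 ± 0.42, limma adjusted p = 0.00126). Slc2a3 thus made up 3.03% and 5.92% of the summed FPKM of the pair in MEF, 54.7% at day 12, 60.1% and 79.9% at day 16, and 55.4% to 70.1% in CiPSC.

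In XEN cells Slc2a3 reached 725 and 614 FPKM (CeXEN) and 965 and 796 FPKM (eXEN), against 512 and 353 FPKM in ESC and 376 to 776 FPKM in CiPSC. The 0.75 ± 0.19 higher level (limma adjusted p = 0.00314) stayed under the fold that a call needs. Its share of the pair was 82.9% ± 5.16 in XEN cells (SD, n = 4) and 66.1% ± 7.19 in pluripotent cells (SD, n = 9), with no overlap between the groups (exact two-sided permutation test, p = 0.0028, the smallest that 4 against 9 libraries can give, 0.00524 after adjustment over 15 isozyme shares). The permutation tests take every library as independent, although both eXEN libraries are a single line and CiPSC lines C1 and C2 were the closest pair. Their p-values may thus be too small. At day 16 against XEN cells Slc2a3 was lower (-2.27 ± 0.25, limma adjusted p = 2.23e-05), with both day 16 libraries below all 4 XEN libraries.

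Hexokinases trap glucose in the cell as glucose 6-phosphate. Hk1, the constitutive isozyme, stayed between 17.7 and 39.8 FPKM in all 21 libraries and was called in none of the comparisons. Hk2, the inducible isozyme, had 20.2 and 7.43 FPKM in MEF, 21.7 at day 12, 44.5 and 35.4 at day 16, 43.2 at day 20, 43.6 at day 26, 46.7 at day 28 and 70.0 to 124 (median 96.5) in CiPSC. Both day 16 libraries were above both MEF libraries, and all CiPSC lines above both day 16 libraries (1.61 ± 0.40, limma adjusted p = 0.00779, and 1.23 ± 0.32, limma adjusted p = 0.00565). The Hk2 call at day 16 against MEF was lost without MEF replicate 2 (0.94, limma adjusted p = 0.109) or day 16 replicate 1 (1.45, limma adjusted p = 0.0674), and that of CiPSC against day 16 without day 16 replicate 2 (1.07, limma adjusted p = 0.0707). Of the pair Hk1 and Hk2, Hk1 was the larger in MEF (58.9% and 79.0%) and at day 12 (60.3%), and Hk2 in all other libraries. In XEN cells Hk2 had 54.8 and 71.1 FPKM (CeXEN) and 66.2 and 32.6 FPKM (eXEN), overlapping with 57.6 and 68.6 FPKM in ESC.

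A further hexokinase outside the 34, Hkdc1, had 92.7 and 107 FPKM in CeXEN and 60.6 and 148 in eXEN, against 0 to 0.136 FPKM in pluripotent cells (6.5 ± 0.22, limma adjusted p = 2.47e-11). It stood at 0.0564 and 0 FPKM in MEF, 26.3 at day 12 and 72.3 and 35.1 at day 16. Hkdc1 was above Hk2 at day 12, in day 16 replicate 1, in all later libraries on the way and in 3 of 4 XEN libraries, the exception being eXEN replicate 1.

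**Figure D2:**
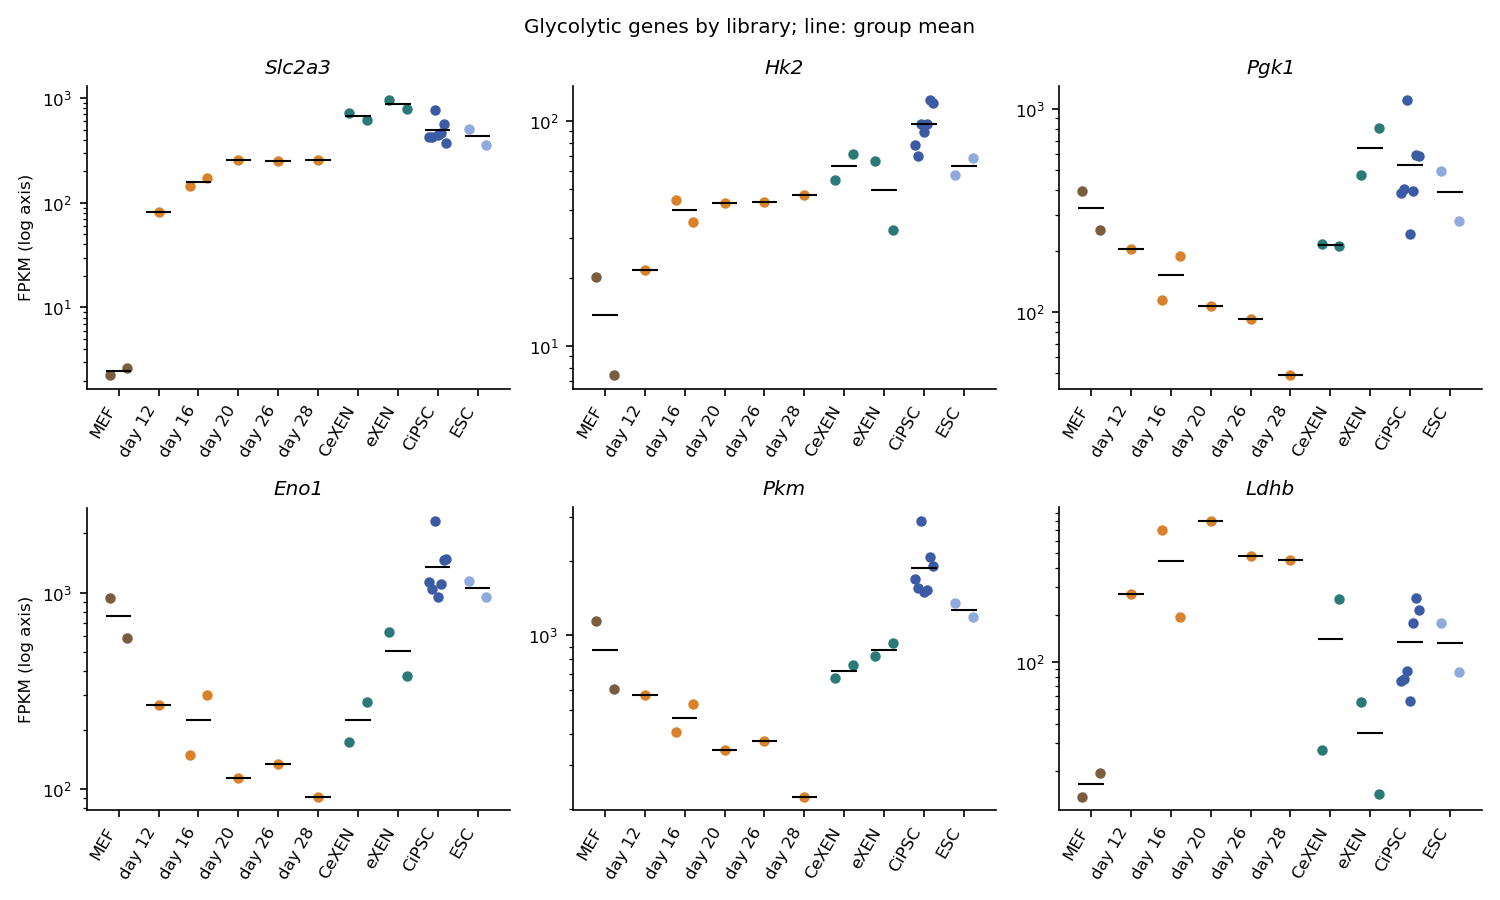
FPKM of 6 glycolytic genes (log axes) in each of the 21 libraries, by group; points are libraries and lines are group means. Slc2a3 stands at 2.25 and 2.65 in MEF and at 81.4 or more elsewhere, Eno1 reaches 91.7 at day 28 and 2302 in a CiPSC line, and Ldhb peaks at 798 at day 20.

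In upper glycolysis none of the 7 genes was called by limma at day 16 against MEF, and 0 had an unadjusted p under 0.05, whereas 6 of 7 rose in CiPSC, both against day 16 and against MEF (Pfkp and Aldoa were not called against MEF with median of ratios). Of all genes, 13% were called higher against day 16 and 21.7% against MEF. Leaving out MEF replicate 1 lost the calls of Pfkl and Pfkp against MEF (1.36 and 1.39). Leaving out MEF replicate 2 lost those of Gpi1, Pfkp and Aldoa (1.17, 1.56 and 1.09). Against day 16, Gpi1 and Pfkp were lost without day 16 replicate 1 (1.11 and 1.79) and Aldoc without replicate 2 (1.74). Phosphofructokinase, which commits sugar to glycolysis, is made of liver (Pfkl), muscle (Pfkm) and platelet (Pfkp) subunits, and Pfkl led in every library but 1 ESC library. Pfkl had 34.97 and 38.7 FPKM in MEF, 37.5 at day 12, 23.5 and 19.8 at day 16, 22.1 at day 20, 27.9 at day 26, 25.0 at day 28 and 54.6 to 203 (median 86.4) in CiPSC, with all CiPSC lines above all earlier libraries. The change of CiPSC against day 16 was 2.18 ± 0.40 (limma adjusted p = 0.000469). It was also the only upper glycolysis gene called at day 16 against XEN cells (-1.36 ± 0.43, limma adjusted p = 0.0365), with 33.3 and 49.2 FPKM in CeXEN and 64.0 and 100 FPKM in eXEN. That call was lost without day 16 replicate 1 or 2, CeXEN replicate 2 or eXEN replicate 2 (-1.48, -1.24, -1.22 and -1.20, limma adjusted p = 0.0847 to 0.188).

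Among the upper glycolysis genes Pfkp differed most between XEN and pluripotent cells. It had 7.42 and 8.28 FPKM in CeXEN and 7.06 and 0.681 in eXEN, against 54.0 and 61.4 in ESC and 27.1 to 146 (median 51.7) in CiPSC. The XEN libraries all lay below the pluripotent ones (-3.39 ± 0.44, limma adjusted p = 1.62e-05). On the way to CiPSC, Pfkp had 19.8 and 22.4 FPKM in MEF, 24.1 at day 12, 8.36 and 16.7 at day 16, 10.3 at day 20, 4.68 at day 26 and 4.27 at day 28. Its share of phosphofructokinase was 8.50% ± 6.06 in XEN cells (SD, n = 4), against 33.6% ± 6.48 in pluripotent cells (SD, n = 9), and that of Pfkl 70.4% ± 6.91 against 51.1% ± 6.41 (exact two-sided permutation tests, p = 0.0028 and adjusted p = 0.00524 each). The Pfkm share, 21.2% ± 2.66 in XEN cells and 15.3% ± 5.29 in pluripotent cells, missed the threshold (exact permutation test, adjusted p = 0.0944). Pfkp lies over part of Pitrm1 and Pfkm over part of Senp1 on the other strand, and the sources used here do not say whether reads were counted by strand.

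Aldolase was almost wholly Aldoa, the muscle form, at 98.4% or more of the pair in all libraries. Aldoc, the brain form, had 2.86 and 6.69 FPKM in CeXEN and 2.52 and 1.60 FPKM in eXEN, against 23.1 and 7.95 in ESC and 7.48 to 42.9 (median 14.4) in CiPSC, again with no overlap (-2.04 ± 0.46, limma adjusted p = 0.0017). It also rose in CiPSC against MEF, where it stood at 0.626 and 1.49 FPKM (3.24 ± 0.58, limma adjusted p = 0.000266). Tpi1, triose phosphate isomerase, went the other way from its neighbours: 477 and 895 FPKM in CeXEN and 558 and 487 FPKM in eXEN stood against 231 and 182 FPKM in ESC and 182 to 736 (median 253) in CiPSC (1.22 ± 0.35, limma adjusted p = 0.00847). Of the pluripotent libraries only line C3 lay above the lowest XEN library, and without CeXEN replicate 2 the change was 1.00, just under the fold of a call. Along reprogramming Tpi1 had 275 and 237 FPKM in MEF, 397 at day 12, 531 and 280 at day 16 and 230 at day 28, and it was the upper glycolysis gene not called in CiPSC against day 16. Gpi1 (glucose 6-phosphate isomerase), Pfkm and Aldoa rose in CiPSC against day 16 by 1.23, 1.48 and 1.46, and Gpi1 lost this call without day 16 replicate 1 (1.11, limma adjusted p = 0.0832).

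Lower glycolysis, from glyceraldehyde 3-phosphate to pyruvate, was lower in the libraries on the way than in MEF and CiPSC. The mean of log2(FPKM + 1) over its 7 genes was 7.82 and 7.39 in MEF, 6.95 at day 12, 6.46 and 6.95 at day 16, 6.5 at day 20, 6.43 at day 26, 5.82 at day 28 and 7.84 to 9.08 in CiPSC, so that no library on the way overlapped with MEF or CiPSC. Among XEN cells only CeXEN replicate 1 (6.82) lay within the range of the libraries on the way. CeXEN replicate 2 (7.09) and eXEN (7.44 and 7.56) lay above that range, with both eXEN libraries between the MEF values. Only 2 of the 7, both enolases, were called lower at day 16 against MEF (7.41% of all genes). In CiPSC against day 16, 6 of 7 were called higher (13% of all genes). Eno1, the main enolase, had 938 and 590 FPKM in MEF, 267 at day 12, 150 and 302 at day 16, 115 at day 20, 134 at day 26, 91.7 at day 28 and 952 to 2302 (median 1137) in CiPSC. All CiPSC lines were above all earlier libraries, and all libraries on the way below both MEF libraries. The change was -1.80 ± 0.43 at day 16 against MEF (limma adjusted p = 0.006) and 2.61 ± 0.34 in CiPSC against day 16 (limma adjusted p = 2.81e-05). The Eno1 call at day 16 against MEF was lost without MEF replicate 1 (-1.47, limma adjusted p = 0.0556) or day 16 replicate 1 (-1.30, limma adjusted p = 0.0909).

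Pgk1, phosphoglycerate kinase, followed the same course, with 396 and 254 FPKM in MEF, 205 at day 12, 116 and 190 at day 16, 107 at day 20, 92.9 at day 26, 49.0 at day 28 and 243 to 1111 (median 402) in CiPSC. Its change at day 16 was -1.09 ± 0.54 (limma adjusted p = 0.15) and did not pass, while that of CiPSC against day 16 was 1.69 ± 0.43 (limma adjusted p = 0.00519) and was lost without day 16 replicate 1 (1.33, limma adjusted p = 0.104). Pkm, pyruvate kinase, had 1139 and 607 FPKM in MEF, 405 and 525.9 at day 16, 223 at day 28 and 1496 to 2881 (median 1684) in CiPSC, and as values are per gene its isoforms M1 and M2 are not separated. Gapdh ranged from 879 at day 28 to 4255 in a CiPSC line, and Pgam1 from 113 at day 28 to 961 in a CiPSC line. Gapdh, Pgk1, Pgam1, Eno1 and Pkm all had their lowest value of the 21 libraries at day 28, a single library without a replicate. Near-identical copies could share reads with 3 of these genes, namely Eno1b (5.66% to 24.4% of the Eno1 and Eno1b sum), Pgam1-ps2 and Pgk1-rs7. With the copies added, day 16 minus MEF was -1.80, -0.41 and -1.10.

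The minor enolases differed between the cell types. Eno2, the neuronal form and a hypoxia target, had 10.2 and 20.1 FPKM in CeXEN and 6.05 and 14.0 FPKM in eXEN, against 4.29 and 1.25 in ESC and 1.71 to 18.1 (median 3.67) in CiPSC (1.48 ± 0.50, limma adjusted p = 0.0197). The groups overlapped through CiPSC lines C3, N4 and N6. The call was lost without CeXEN replicate 2, eXEN replicate 2 or ESC replicate 2 (1.25, 1.21 and 1.17, limma adjusted p = 0.0811, 0.0939 and 0.1). Eno3, the muscle form, had 1.81 and 1.18 FPKM in CeXEN and 1.34 and 2.75 FPKM in eXEN, against 11.3 and 12.6 in ESC and 11.6 to 24.0 (median 20.1) in CiPSC, with no overlap (-2.48 ± 0.24, limma adjusted p = 9.03e-07). It also fell at day 16, to 4.50 and 3.11 FPKM, against 15.0 and 18.4 FPKM in MEF (-1.89 ± 0.38, limma adjusted p = 0.0018). Eno1 itself was lower in XEN cells, with 173 and 276 FPKM in CeXEN and 630 and 378 FPKM in eXEN, against 952 to 2302 FPKM in pluripotent cells (-1.83 ± 0.27, limma adjusted p = 5.99e-05). Eno1 nevertheless made up 89.4% or more of enolase FPKM in every library, and the Eno2 share was 4.20% ± 2.54 in XEN cells (SD, n = 4) and 0.368% ± 0.216 in pluripotent cells (SD, n = 9; exact two-sided permutation test, p = 0.0028, adjusted p = 0.00524).

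Lactate dehydrogenase changed its leading gene during reprogramming. Ldha, the subunit that favours lactate production, had 780 and 515 FPKM in MEF, 497 at day 12, 443 and 387 at day 16, 360 at day 20, 331 at day 26, 199 at day 28 and 499 to 1781 (median 681) in CiPSC. Ldhb, the heart subunit that favours the return of lactate to pyruvate (mm10 chr6:142490249-142507957), had 13.6 and 19.3 FPKM in MEF, 270 at day 12, 698 and 194 at day 16, 798 at day 20, 478 at day 26, 449 at day 28 and 56.3 to 256 (median 86.9) in CiPSC. Ldhb therefore took 1.71% and 3.61% of the pair in MEF, 35.2% at day 12, 61.2% and 33.4% at day 16, 68.9% at day 20, 59.1% at day 26, 69.3% at day 28 and 4.65% to 21.2% in CiPSC. It led in 4 of the 6 libraries on the way and in no other library of the series. The Ldhb change at day 16 against MEF was 4.42 ± 0.98 (limma adjusted p = 0.00383). Without day 16 replicate 1 the change was 3.5 (limma adjusted p = 0.0612).

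Ldhb was lower in most XEN libraries. They had 27.3 and 252 FPKM in CeXEN and 55.4 and 14.2 FPKM in eXEN, and day 16 was above them by 2.89 ± 0.85 (limma adjusted p = 0.0257), the only one of the 34 genes called higher there. The groups overlapped at day 16 replicate 2 and CeXEN replicate 2, and without day 16 replicate 1 the change was 1.97 (limma adjusted p = 0.276). It was also lost without CeXEN replicate 1 or eXEN replicate 2 (2.10 and 2.42, limma adjusted p = 0.07 and 0.0814). The Ldhb share was 9.83% ± 11.4 in XEN cells (SD, n = 4) and 13.8% ± 5.65 in pluripotent cells (SD, n = 9), a difference within the spread of the libraries (exact permutation test, adjusted p = 0.414). Without CeXEN replicate 2 it passed (-9.61 percentage points, exact permutation test, adjusted p = 0.0372). The Ldhb level in XEN against pluripotent cells (-1.27 ± 0.63, limma adjusted p = 0.099) was called without CeXEN replicate 2 or eXEN replicate 1 (-2.06 and -1.75, limma adjusted p = 0.0102 and 0.049).

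Lactate leaves the cell through the monocarboxylate transporters MCT1 (Slc16a1) and MCT4 (Slc16a3), the second a hypoxia target of strongly glycolytic cells. Slc16a1 had 12.5 and 11.4 FPKM in MEF, 40.5 at day 12, 50.6 and 45.9 at day 16, 66.8 at day 20, 35.1 at day 26, 47.3 at day 28 and 43.0 to 64.1 (median 57.2) in CiPSC. Slc16a3 had 47.5 and 47.2 FPKM in MEF, 26.6 at day 12, 20.0 and 10.9 at day 16, 18.5 at day 20, 7.60 at day 26, 5.57 at day 28 and 35.7 to 278 (median 59.9) in CiPSC. Every library on the way was above MEF for Slc16a1 and below it for Slc16a3. Slc16a1 rose at day 16 against MEF (1.93 ± 0.21, limma adjusted p = 1.48e-05), whereas the Slc16a3 change of -1.61 ± 0.80 did not pass (limma adjusted p = 0.153). Slc16a3 made up 79.2% and 80.6% of the pair in MEF, 39.7% at day 12, 28.3% and 19.1% at day 16, 10.5% at day 28 and 38.5% to 86.6% in CiPSC.

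In XEN cells Slc16a1 stood at 156 and 126 FPKM (CeXEN) and 130 and 200 FPKM (eXEN), all above the 43.0 to 64.1 FPKM of pluripotent cells (1.35 ± 0.14, limma adjusted p = 1.4e-06). Slc16a3 stood at 28.8 and 48.7 FPKM (CeXEN) and 7.88 and 13.6 FPKM (eXEN), against 35.7 to 278 FPKM (median 56.5) in pluripotent cells (-1.56 ± 0.51, limma adjusted p = 0.0181). This call was lost without CeXEN replicate 1, eXEN replicate 1 or ESC replicate 1 (-1.38, -1.38 and -1.46, limma adjusted p = 0.0706, 0.0684 and 0.0614). The Slc16a3 share was 13.9% ± 10.4 in XEN cells (SD, n = 4) and 53.4% ± 16.9 in pluripotent cells (SD, n = 9), without overlap (exact two-sided permutation test, p = 0.0028, adjusted p = 0.00524). The difference of means was the largest among the 15 shares compared.

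**Figure D3:**
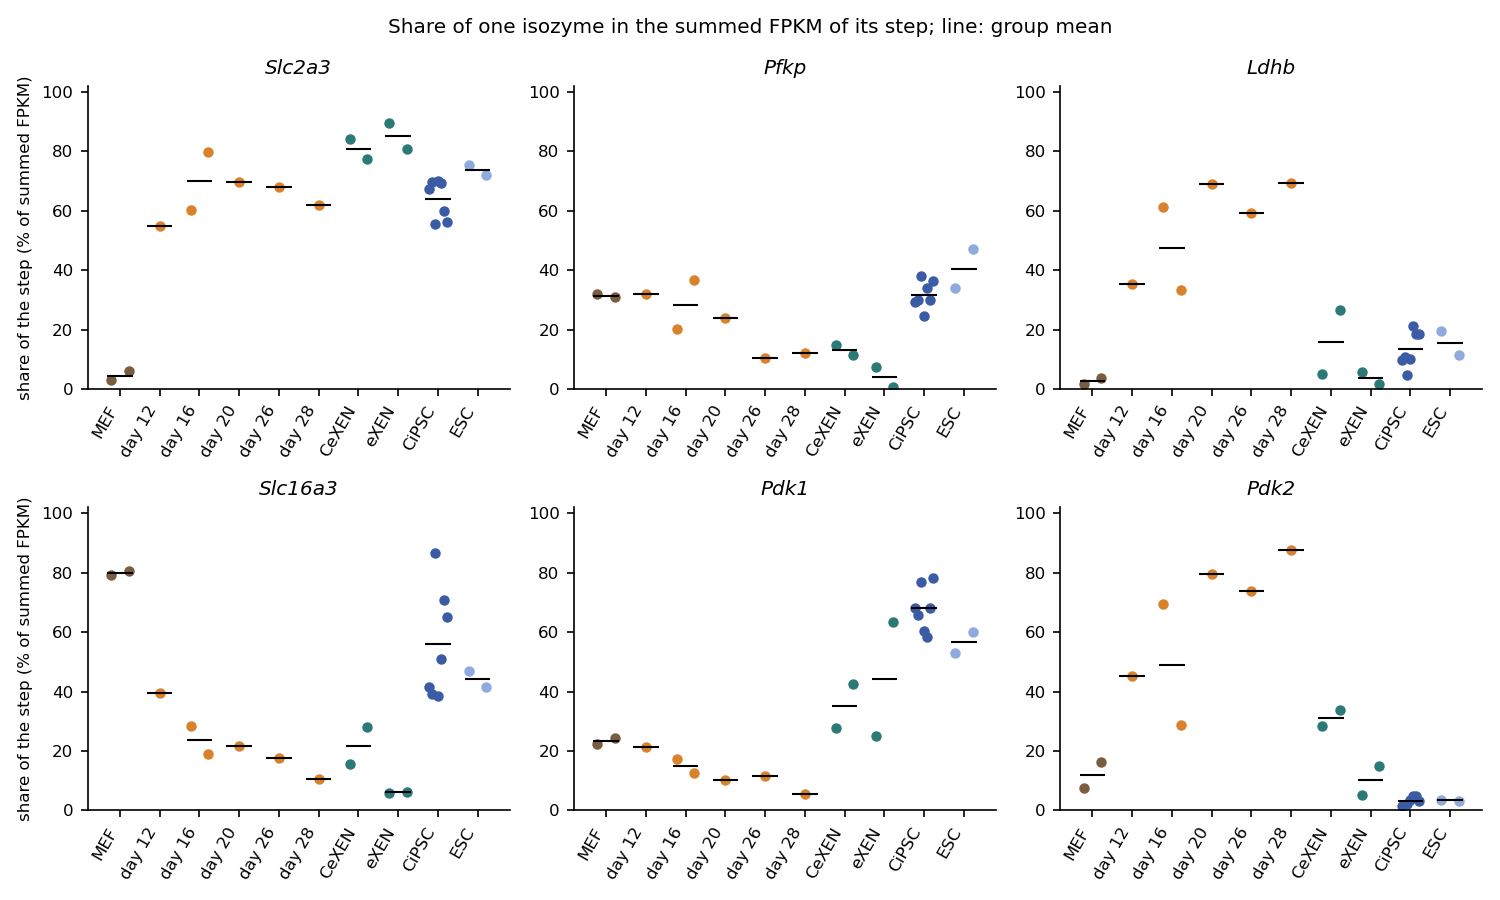
Share of one gene in the summed FPKM of its step (percent, linear axes from 0) in each of the 21 libraries; points are libraries and lines are group means. Ldhb and Pdk2 reach 69.3% and 87.6% at day 28, and Slc16a3 stands at 79.2% and 80.6% in MEF, 10.5% at day 28 and 38.5% to 86.6% in CiPSC.

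Among Pdk1, Pdk2 and Pdk3, kinases that inhibit pyruvate dehydrogenase, each led in another state along reprogramming. XEN cells had no single leader, with Pdk3 ahead in replicate 1 and Pdk1 in replicate 2 of both CeXEN and eXEN. A further kinase of the family, Pdk4, is outside the 34 and not part of these shares (0.395 to 3.34 FPKM in CiPSC). Pdk3 led in MEF (70.3% and 59.2% of the FPKM of Pdk1, Pdk2 and Pdk3), Pdk2 in 5 of the 6 libraries on the way, and Pdk1, the classical hypoxia target of the family, in all pluripotent libraries (53.0% to 78.2%). Pdk1 had 3.89 and 10.7 FPKM in MEF, 6.71 at day 12, 6.85 and 2.48 at day 16, 4.95 at day 20, 4.87 at day 26, 3.18 at day 28 and 30.7 to 96.7 (median 39.2) in CiPSC, with every CiPSC line above all earlier libraries (CiPSC against day 16, 3.28 ± 0.55, limma adjusted p = 0.000225). Pdk2 had 1.30 and 7.17 FPKM in MEF, 14.3 at day 12, 27.3 and 5.67 at day 16, 39.0 at day 20, 30.7 at day 26, 49.1 at day 28 and 0.798 to 4.16 (median 2.67) in CiPSC. It fell in CiPSC against day 16 (-2.12 ± 0.60, limma adjusted p = 0.00983), and without day 16 replicate 1 the change was -1.08 (limma adjusted p = 0.287). Pdk3 had 12.3 and 26.0 FPKM in MEF, 10.6 at day 12, 5.12 and 11.6 at day 16, 5.08 at day 20, 6.02 at day 26, 3.80 at day 28 and 17.1 to 26.4 (median 19.3) in CiPSC. All CiPSC lines were above both day 16 libraries for Pdk3 (1.30 ± 0.35, limma adjusted p = 0.00713), a call lost without day 16 replicate 1 (0.78, limma adjusted p = 0.198).

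XEN cells held less Pdk1, with 5.91 and 22.6 FPKM in CeXEN and 7.90 and 24.3 FPKM in eXEN, against 30.7 to 96.7 FPKM in pluripotent cells, and no overlap (-1.64 ± 0.44, limma adjusted p = 0.00544). The Pdk1 share was 39.7% ± 17.6 in XEN cells (SD, n = 4) and 65.5% ± 8.41 in pluripotent cells (SD, n = 9; exact two-sided permutation test, adjusted p = 0.021). It missed the threshold without CeXEN replicate 1, CeXEN replicate 2 or eXEN replicate 1 (exact permutation tests, adjusted p = 0.0682, 0.0568 and 0.062). The Pdk2 share was 20.6% ± 13.0 against 3.14% ± 1.19 in the same libraries (exact two-sided permutation test, adjusted p = 0.00524). Pdk2 itself had 6.02 and 17.9 FPKM in CeXEN and 1.59 and 5.79 FPKM in eXEN, and its change of 1.14 ± 0.48 did not pass (limma adjusted p = 0.0565), though it did under both rescalings (1.43 with quantile normalization and 1.29 with median of ratios) and without CeXEN replicate 1, eXEN replicate 1 or CiPSC line N4 (1.5, 1.49 and 1.20). In all, 11 of the 15 shares passed an adjusted p of 0.05 and 8 did not overlap. The Eno1 share was no longer past it without CeXEN replicate 1, CeXEN replicate 2 or eXEN replicate 2 (exact permutation tests, adjusted p = 0.124, 0.105 and 0.124).

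Of the 9 genes grouped as hypoxia targets, 6 were higher and none lower in XEN than in pluripotent cells, beside 10.9% and 18.6% of all genes. The mean of log2(FPKM + 1) over the 9 was 5.61 to 6.14 in XEN cells and 3.08 to 5.47 in pluripotent cells. Among hypoxia targets counted under other roles, Pdk1 and Slc16a3 were lower (-1.64 and -1.56) and Eno2 higher (1.48). P4ha2 and P4ha1 code for the catalytic subunits of the collagen prolyl 4-hydroxylases, which collagen needs to fold. P4ha2 (mm10 chr11:54100095-54131665) had 403 and 317 FPKM in CeXEN and 388 and 387 FPKM in eXEN, against 13.7 and 7.17 in ESC and 6.06 to 37.9 (median 8.85) in CiPSC. The gap between the groups was wide (5.09 ± 0.38, limma adjusted p = 6.09e-08). Along reprogramming P4ha2 had 46.0 and 56.2 FPKM in MEF, 120 at day 12, 179 and 225 at day 16, 245 at day 20, 347 at day 26 and 315 at day 28. All libraries on the way were above MEF, and all CiPSC lines below MEF (day 16 against MEF, 1.96 ± 0.59, limma adjusted p = 0.0225, and CiPSC against day 16, -4.20 ± 0.47, limma adjusted p = 6.57e-06). The day 16 call was lost when any single one of the MEF or day 16 libraries was left out.

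P4ha1 had 329 and 247 FPKM in CeXEN and 161 and 466.04 FPKM in eXEN, against 38.0 and 14.6 FPKM in ESC and 9.47 to 59.2 FPKM (median 22.9) in CiPSC (3.55 ± 0.45, limma adjusted p = 1.37e-05). In MEF it had 66.8 and 105 FPKM, at day 12 36.3, at day 16 88.6 and 49.7, and 117 to 128 FPKM from day 20 to day 28. P4ha1 was thus the larger of the pair in MEF and in pluripotent cells, and P4ha2 in all libraries on the way and in 3 of 4 XEN libraries. The P4ha2 share was 56.8% ± 10.4 in XEN cells (SD, n = 4) and 31.2% ± 7.65 in pluripotent cells (SD, n = 9; exact two-sided permutation test, p = 0.0028, adjusted p = 0.00524).

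Egln3, an oxygen-sensing prolyl hydroxylase that is itself a HIF target, had 88.6 and 82.1 FPKM in CeXEN and 65.8 and 93.8 FPKM in eXEN, against 6.32 and 9.98 FPKM in ESC and 8.19 to 66.2 FPKM (median 13.3) in CiPSC (2.7 ± 0.48, limma adjusted p = 0.00026). Line C3 alone among the pluripotent libraries reached the XEN range. Ndrg1, a stress-induced gene of differentiating cells, had 145 and 321 FPKM in CeXEN and 132 and 186 FPKM in eXEN, against 6.31 and 9.55 in ESC and 7.85 to 56.4 (median 16.7) in CiPSC (3.82 ± 0.55, limma adjusted p = 4.23e-05). Between MEF and day 28 Egln3 went through 3.84 and 3.16 FPKM in MEF, 11.8 at day 12, 13.48 and 13.1 at day 16, 35.03 at day 20, 19.2 at day 26 and 27.1 at day 28. Ndrg1 had 6.57 and 20.9 FPKM in MEF, 38.6 at day 12, 53.0 and 21.96 at day 16, 89.6 at day 20, 99.5 at day 26 and 123 at day 28. Every library on the way was above both MEF libraries for both genes, but their day 16 changes of 1.67 and 1.45 did not pass (limma adjusted p = 0.113 and 0.235). Ndrg1 overlaps an antisense gene, Gm17035, listed at up to 285 FPKM.

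Ero1l, which oxidises protein disulphide isomerase in the endoplasmic reticulum, was the target on which the XEN sources differed: 30.5 and 30.3 FPKM in CeXEN stood against 277 and 269 FPKM in eXEN, in both eXEN media. Pluripotent cells had 16.6 to 76.6 FPKM (XEN against pluripotent, 1.42 ± 0.35, limma adjusted p = 0.00344). The difference between CeXEN and eXEN was not tested. Vegfa, the vessel growth factor, had 75.2 and 161 FPKM in CeXEN and 58.3 and 53.4 FPKM in eXEN, against 11.3 to 44.4 FPKM in pluripotent cells, with no overlap (1.31 ± 0.29, limma adjusted p = 0.00143).

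Bnip3, a mitophagy receptor, and Ankrd37, an ankyrin repeat gene that overlaps Ufsp2 on the other strand, did not follow. Bnip3 had 60.1 and 76.7 FPKM in CeXEN and 60.3 and 143 FPKM in eXEN, against 24.1 to 275 FPKM in pluripotent cells (0.19 ± 0.67, limma adjusted p = 0.84). Ankrd37 had 3.16 to 15.1 FPKM in XEN cells and 5.30 to 48.5 FPKM in pluripotent cells (-0.72 ± 0.46, limma adjusted p = 0.199). Both rose in CiPSC against day 16, as did Ero1l (1.14 ± 0.44, limma adjusted p = 0.0462), while P4ha1, P4ha2 and Vegfa fell. The Ero1l and P4ha1 calls were lost without either day 16 library (Ero1l 0.84 and 1.43, P4ha1 -1.13 and -1.96, without replicate 1 and 2), and the Vegfa call without day 16 replicate 1 (-1.14, limma adjusted p = 0.107). At day 16 Bnip3 had 28.1 and 3.28 FPKM and Ankrd37 1.46 and 0 FPKM (2.73 ± 0.84, limma adjusted p = 0.0153, and 3.21 ± 0.57, limma adjusted p = 0.000379). The Bnip3 call was lost without day 16 replicate 2 (1.35, limma adjusted p = 0.324). Car9, the carbonic anhydrase often used as a hypoxia marker, stayed at or below 2.29 FPKM in all 21 libraries and was called in no comparison.

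**Figure D4:**
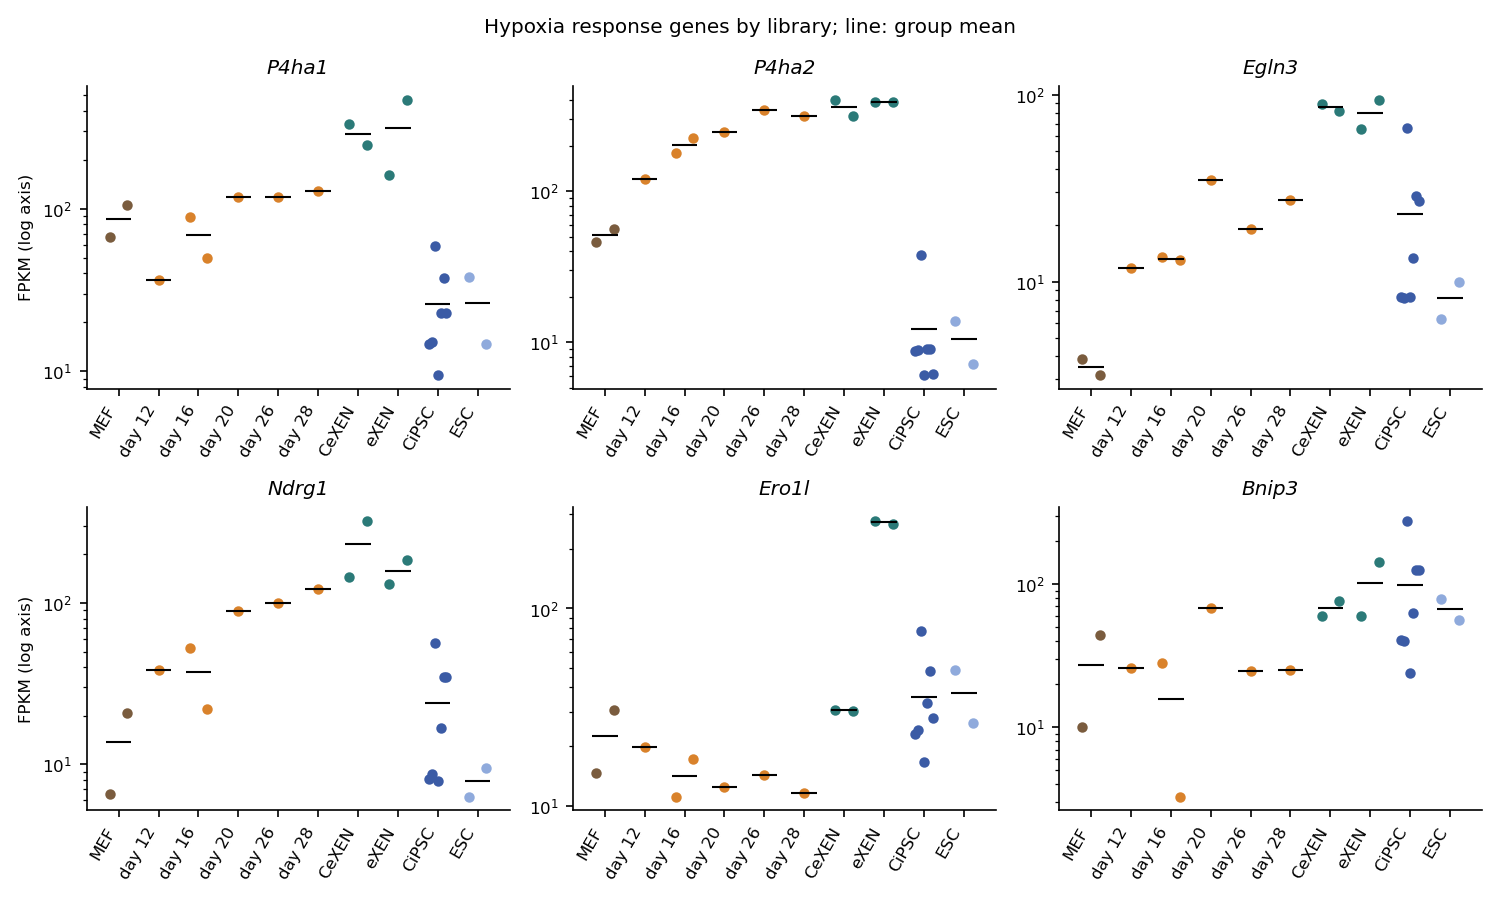
FPKM of 6 hypoxia response genes (log axes) in each of the 21 libraries, by group; points are libraries and lines are group means. P4ha2 stands at 317 to 403 in XEN cells and 6.06 to 37.9 in pluripotent cells, and Ero1l at 277 and 269 in eXEN and 30.5 and 30.3 in CeXEN.

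Day 16 cells carried XEN markers but less of most of the 9 hypoxia targets than XEN cells. Of the 9, 6 were called lower and none higher, beside 1.87% and 12% of all genes. Of these 6 calls only that of Ero1l held under every alternative, and its gap was far wider to eXEN than to CeXEN. Bnip3, Ero1l, Egln3, Ndrg1, Ankrd37 and P4ha1 were lower, with changes of -2.85, -2.64, -2.54, -2.39, -2.11 and -2.06, with limma adjusted p-values of 0.00124 to 0.0379. P4ha2 did not pass (-0.89 ± 0.51, limma adjusted p = 0.247). Ero1l held this call when either day 16 library was left out, P4ha1, Egln3 and Ndrg1 lost it in both cases, and Bnip3 (-1.47) and Ankrd37 (-1.46) lost it without replicate 2. Slc16a1 was also lower at day 16 (-1.62 ± 0.18, limma adjusted p = 2.9e-05). Beside these, 7 of 10 fibroblast markers were higher at day 16, with summed levels of 393 and 672 FPKM against 91.0 to 228 FPKM in XEN cells, and their part in the result was not tested. With no filter on low values, 4 of the 34 genes were called in this comparison, and a fit of only the groups compared also called 4. P4ha1, Bnip3, Ankrd37 and Ndrg1 were not called in either setting. These targets also lost the call when certain single XEN libraries were left out.

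Of the regulators of the pathway, Epas1 and Egln1 were high at day 16 and in XEN cells. Epas1, the HIF alpha subunit of endothelium and of erythropoietin control, had 4.97 and 3.06 FPKM in MEF, 141 at day 12, 261 and 218 at day 16, 277 at day 20, 250 at day 26, 266 at day 28 and 12.5 to 21.2 (median 18.0) in CiPSC. XEN cells had 320 and 274 FPKM (CeXEN) and 137 and 196 FPKM (eXEN), against 7.23 to 21.2 FPKM in pluripotent cells. Epas1 rose at day 16 against MEF (5.61 ± 0.32, limma adjusted p = 2.55e-08), fell in CiPSC against day 16 (-3.71 ± 0.26, limma adjusted p = 5.62e-08) and was higher in XEN cells than in pluripotent cells (3.90 ± 0.20, limma adjusted p = 1.64e-09). Hif1a, the more general alpha subunit, stayed between 12.3 and 71.4 FPKM in all libraries and was called once, lower in CiPSC than in MEF (-1.14 ± 0.29, limma adjusted p = 0.00362). Egln1, the main HIF prolyl hydroxylase, followed Epas1, with 24.3 and 21.9 FPKM in MEF, 149 and 60.7 at day 16, 52.5 to 234 in XEN cells and 11.8 to 42.1 in pluripotent cells (XEN against pluripotent, 2.75 ± 0.32, limma adjusted p = 6.34e-06). Arnt was called only in CiPSC against day 16 (1.22 ± 0.20, limma adjusted p = 0.000179) and Vhl in no comparison. Of the 10 regulators listed, 3 were higher and none lower at day 16 against MEF and in XEN against pluripotent cells, where the third, named after its values were seen, was Cited2, a HIF antagonist (3.85 ± 0.34, limma adjusted p = 3.85e-07).

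Other HIF targets, a list of 25 genes outside the 34, split in both directions. In XEN against pluripotent cells 6 were higher and 5 lower, beside 10.9% and 18.6% of all genes. The leading genes among those higher were Loxl2 (5.28 ± 0.40) and Plod2 (3.81 ± 0.38), which modify collagen as P4ha1 and P4ha2 do, and Car12 (4.67 ± 0.23), a carbonic anhydrase. The leading gene among those lower was Angptl4, a secreted inhibitor of lipoprotein lipase (-2.89 ± 0.32). At day 16 against MEF 3 were higher and 2 lower, about the shares of all genes (13.3% and 7.41%). The medians of this list were 0.01 at day 16 against MEF and -0.0025 in XEN against pluripotent cells, beside 0.22 and -0.20 over all genes.

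Genes of mitochondrial respiration were compared as well. Of 19 genes with a value in a list of nuclear-coded respiratory chain and ATP synthase subunits, cytochrome c and Ppargc1a, a coactivator of mitochondrial biogenesis, 8 were higher and none lower at day 16 against MEF (median 0.92), among them Ppargc1a (3.04 ± 0.18), Cyc1 (1.57 ± 0.30), Ndufb8 (1.51 ± 0.26) and Cox5b (1.47 ± 0.29). Of 16 citrate cycle genes 3 were higher and none lower (median 0.69). Of all genes, 13.3% were called higher and 7.41% lower in this comparison. The median over all genes was 0.22, and -0.02 or 0.00 after rescaling (quantile or median of ratios). A fit of only the 4 day 16 and MEF libraries called 0 of all genes. In XEN against pluripotent cells none of either list was called by limma, though 6 and 5 had an unadjusted p under 0.05, with medians of -0.12 and -0.11. In CiPSC against day 16, 1 gene of the respiratory list, the coactivator Ppargc1a, was lower and 1 citrate cycle gene, Suclg2, higher, while 22 of the 34 glycolysis and hypoxia genes were higher. Of 10 fibroblast markers 7 were lower and 1 higher at day 16 against MEF, with summed levels of 393 and 672 FPKM against 3400 and 11091 FPKM in MEF, 7 of 8 XEN markers were higher, and 5 of 6 macrophage markers tested were lower (7.49 and 3.18 FPKM in sum, against 126 and 44.7 FPKM in MEF). Their part in these changes was not tested.

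No difference between CiPSC and ESC passed for any of the 34 genes. None was called by limma, 1 had an unadjusted p under 0.05, and 0.0601% of all genes were called (0.036% higher and 0.024% lower). The changes ran from -0.61 ± 0.36 (Vegfa) to 1.14 ± 0.69 (Ndrg1), and with 2 ESC libraries differences within these errors were not detectable. In the members 26 of 34 changes were positive, with a median of 0.30, against 0.01 over all genes.

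Among the CiPSC lines, C3 stood apart in these genes. Of the 34 genes 27 had their highest CiPSC value in C3, against 27.4% of all genes, and 20 were at least 1 above the median of the other 6 lines on the log2(FPKM + 1) scale, against 3.55% of all genes. Line C3 was singled out after the values were seen, and this is a description of 1 library. Egln3 stood at 66.2 FPKM in C3, against 8.19 to 28.7 FPKM (median 10.8) in the other lines. Slc16a3 stood at 278 FPKM, against 35.7 to 156 FPKM (median 49.0), and Bnip3 at 275 FPKM, against 24.1 to 126 FPKM (median 51.8). Eno2 stood at 18.1 FPKM, against 1.71 to 9.73 FPKM (median 3.21). Lines N4 and N6 came next for these genes, with 156 and 106 FPKM of Slc16a3, 125 and 126 of Bnip3 and 28.7 and 26.9 of Egln3, while C1, C2 and G1 were lowest.

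The pattern did not extend to every member. Slc16a1 was lowest in C3, at 43.0 FPKM against 54.0 to 64.1 FPKM in the others. Ldhb (86.9 FPKM in C3, 56.3 to 256 in the others) and Hk2 (96.9 FPKM, 70.0 to 124 in the others) were in the middle. Of the 25 other HIF targets 11 were at least 1 higher in C3, and of the 16 citrate cycle, 19 respiratory list and 8 pluripotency genes none. Of the 10 HIF regulators listed, 2 were at least 1 higher in C3, and the median difference of the list was -0.10. The 2 were Egln1, at 42.1 FPKM against 11.8 to 25.3 FPKM, and Hif3a, at 7.18 FPKM against 0.608 to 4.355 FPKM. Hif1a was lowest in C3, at 12.3 FPKM against 18.5 to 25.8 FPKM. C3 also had the lowest depth (0.403, against 0.806 to 1.58), the lowest share of mitochondrial transcripts (0.575%, against 0.783% to 1.91%) and the highest sum of 10 fibroblast markers (98.1 FPKM, against 6.51 to 67.4 FPKM, with Fap listed at 0 in C3), and the part of these in the pattern was not tested. Without C3, 24 of the 34 genes were called in CiPSC against day 16, 19 in CiPSC against MEF and 15 in XEN against pluripotent cells, so that these comparisons did not rest on it. Ldha (0.82) and Ero1l (0.93) then fell under the fold of a call in CiPSC against day 16.

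**Figure D5:**
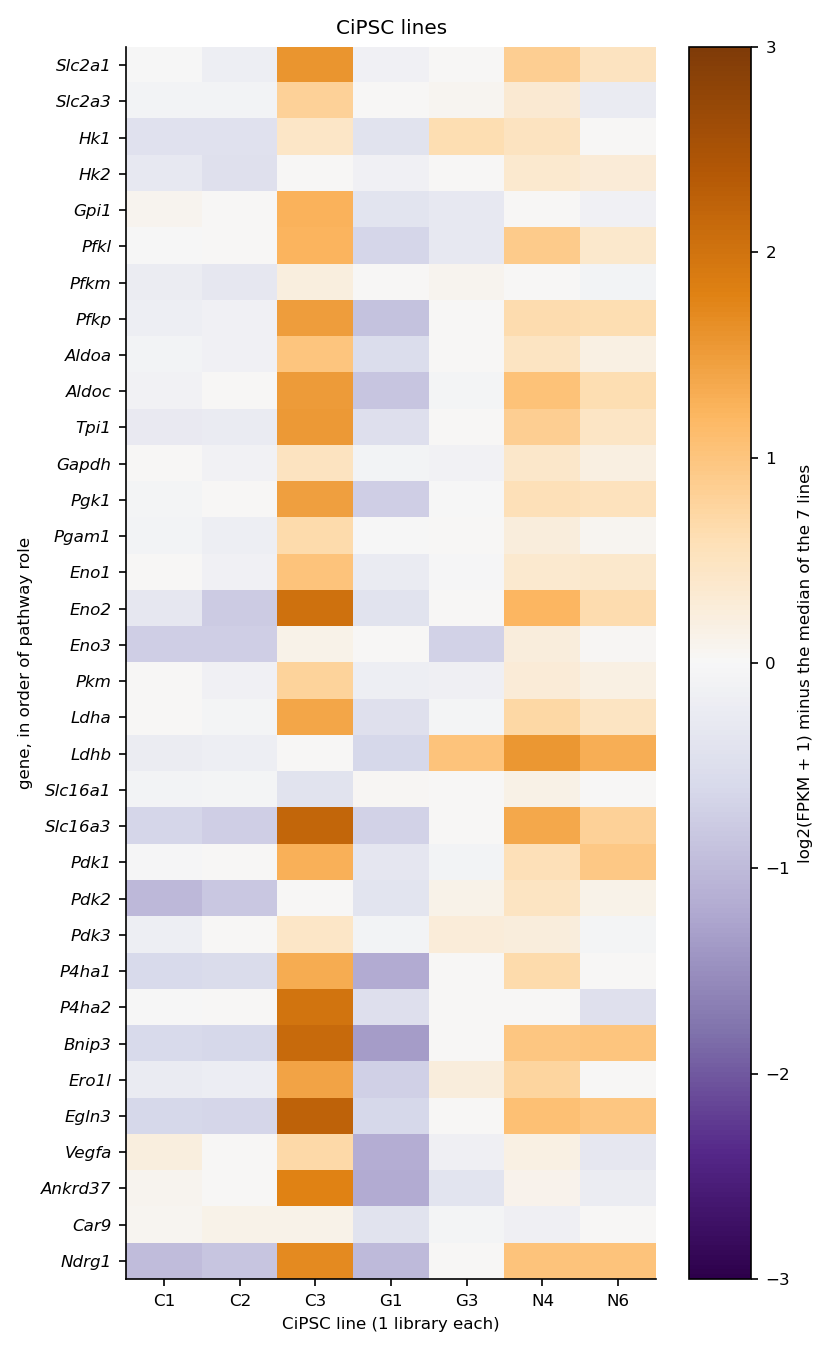
Level of each of the 34 genes (rows) in the 7 CiPSC lines (columns, 1 library each) as log2(FPKM + 1) minus the median of the 7 lines. C3 is the darkest column, with 27 of the 34 highest values, and N4 and N6 follow.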

How the data were processed

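RNA of 21 mouse libraries in 10 groups was sequenced. The authors deposited FPKM values per gene, made with TopHat and Cufflinks on mm10 per the submitters' processing notes; versions, gene models and strand handling are not given in the sources used here. Loci sharing a gene ID were added. Gapdh in CeXEN replicate 2 carries the status FAIL and was kept. The deposited upper bounds of the FPKM values were used for the depth estimate and the closeness of library pairs, and no counting intervals are printed.

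For 16650 genes with at least 1 FPKM in at least 2 libraries, log2(FPKM + 1) was fitted by limma 3.58.1 (R 4.3.3, intensity trend) with a mean for each group over all libraries, leaving 11 residual degrees of freedom, and Benjamini-Hochberg adjustment within each of 6 comparisons. Calls needed an adjusted p under 0.05 and a log2 change of at least 1. XEN is the mean of CeXEN and eXEN, pluripotent that of ESC and CiPSC. Isozyme shares, in percent of the deposited FPKM summed over a step, were compared between 4 XEN and 9 pluripotent libraries by exact two-sided permutation tests (scipy 1.17.1), adjusted over 15 shares; other pairs of groups are too small. The fit was tested on simulated data.

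Given library by library were the isozymes of steps whose leading member differs between groups, up to 4 members per role with the largest changes among those called in both day 16 and CiPSC against MEF or in XEN against pluripotent cells, and sole calls of a role. Of the other lists, Hif1a, Epas1, Arnt, Vhl and Egln1 are always named, with up to 4 called genes of the largest change per comparison. The members and lists were chosen with earlier results of these data known. CiPSC lines C1 and C2 were the closest pair (79.7% of 8786 genes within 2 SD of counting error) and were kept apart. Alternatives covered the pseudocount, filters, scaling, fits of the compared groups alone, a replicate block and each replicate left out, and, chosen after seeing the data, C1 and C2 averaged. The average of C1 and C2 was used in the limma fit only, not for the isozyme shares.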

Additional observations from a re-analysis of the deposited data

Results flagged for a closer look

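In 4 of 49 sets of 7 CiPSC lines (34 genes and 15 isozyme shares), 1 line lay far from the nearest of the others relative to the whole range, and chance gives this in about 1 of 20 sets. All 4 were line C3. Gpi1, glucose 6-phosphate isomerase, stood at 1002 FPKM in C3, beside a median of 421 FPKM over the 7 lines. P4ha2 stood at 37.9 FPKM, beside a median of 8.85 FPKM. Ankrd37 stood at 48.5 FPKM, beside a median of 13.3 FPKM. Slc16a1 was the lowest in C3, at 43.0 FPKM, beside a median of 57.2 FPKM. C3 is 1 library of the lowest depth (0.403 times that of ESC replicate 1), and the part of depth was not tested.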

How the results depend on the processing

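Of 77 calls of the 34 genes over the comparisons, none changed direction under any alternative, and 115 of 3258 combinations of a gene, comparison and setting lost a call while 31 gained one. Calls that held under every alternative numbered 12 of 15 in XEN against pluripotent cells, 12 of 26 in CiPSC against day 16, 9 of 19 in CiPSC against MEF, 3 of 10 at day 16 against XEN cells and 0 of 7 at day 16 against MEF. A fit of only the groups compared called 0 of the 34 and 0 of all genes at day 16 against MEF (4 libraries, so few degrees of freedom), 4 and 1057 at day 16 against XEN cells, and 26 of all genes in CiPSC against ESC. The number of all genes called in CiPSC against ESC, 10, was 5 with a pseudocount of 0.1 and 5 with a filter of 5 FPKM, and 9 to 51 with each replicate left out (51 without ESC replicate 1). No filter on low values left 4 members at day 16 against XEN cells. With each replicate left out, members called ran from 3 to 8 at day 16 against MEF, 4 to 13 at day 16 against XEN cells, 16 to 25 in CiPSC against day 16 and 11 to 19 in CiPSC against MEF. The difference of the Eno3 share (XEN minus pluripotent) was -0.465 percentage points with 1 FPKM added to each isozyme (adjusted p = 0.0944), and the cause was not tested. With each replicate left out the share differences ran from -4.33 to -2.33 for Eno1, -33.6 to -20.8 for Pdk1, -10.5 to -3.77 for Hk2, -9.61 to -1.31 for Ldhb and 4.65 to 7.29 for Pfkm. Replicate numbers did not pair the libraries (correlations of deviations from -0.116 to 0.051), and with the replicate block members called were 7, 25, 19, 15, 10 and 0 in the order day 16 against MEF, CiPSC against day 16, CiPSC against MEF, XEN against pluripotent, day 16 against XEN and CiPSC against ESC, and all genes called 3472, 4980, 6146, 4915, 2329 and 9. Scaling moved the median change of all genes from 0.22 to -0.02 (quantile) or 0.00 (median of ratios) at day 16 against MEF, and the share of higher calls among all genes from 64.3% to 47% or 47.2%. That share moved from 58.7% to 49.7% or 46.8% in CiPSC against MEF, from 36.9% to 50.3% or 45.2% in XEN against pluripotent cells and from 86.5% to 59.3% or 74.6% at day 16 against XEN cells.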
